A study of Mus musculus with 18 samples.

Results

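The genes of the cyclin-dependent kinase (CDK) inhibitors and of the D cyclins were followed by RNA-seq in 4 comparisons. The material was newborn mouse brain tissue at postnatal day 0 (P0) or, for neurospheres, cultures grown from hippocampi of that age. The 9 genes were taken by name. They are Cdkn1a and Cdkn1b of the CIP/KIP inhibitors, Cdkn2a, Cdkn2b, Cdkn2c and Cdkn2d of the INK4 inhibitors, and Ccnd1, Ccnd2 and Ccnd3 of the D cyclins. All 9 were found in each of the 4 tables, among 23138 named genes for hippocampi, 23398 for neurospheres and 54429 each for cortices and Rnf2 hippocampi. Each gene had 1 entry per table, and in hippocampi and neurospheres the entry of Ccnd1 also carries the name of the microRNA gene Mir3962.

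Hippocampi gave 3 control libraries (Kdm2bfl/+ or Kdm2bfl/fl) and 3 conditional knockout (cKO) libraries (Kdm2bEmx1-delta-CxxC), and cortices of these genotypes gave 2 per group. Neurospheres, which are floating cultures of neural progenitor cells (NPC) grown with FGF2 and EGF, were raised from hippocampi of these genotypes, 2 libraries per group. A further set of hippocampi gave 2 control (Rnf2fl/+ or Rnf2fl/fl) and 2 cKO libraries (Rnf2Emx1-cKO). Emx1-Cre recombines in progenitors of the dorsal telencephalon and so in their progeny, while cells of other origin in the same tissue keep the floxed allele. The Kdm2b deletion removes the exon for the CxxC zinc finger, with which KDM2B, a subunit of a variant Polycomb complex, binds CpG-rich DNA. Rnf2 encodes RING1B, a catalytic subunit of Polycomb repressive complex PRC1. The labels do not tell heterozygous from homozygous floxed controls, and they do not say whether a library is 1 animal or a pool, so the p values measure the spread between these libraries. Neurospheres were passaged before RNA was taken, so they are selected for cells that grow in culture.

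D cyclins bind and activate CDK4 and CDK6, which phosphorylate the retinoblastoma proteins, release E2F factors and let a cell pass from G1 into S phase. INK4 proteins bind CDK4 and CDK6 and keep D cyclins from them, whereas CIP/KIP proteins bind cyclin-CDK complexes more widely. In the embryonic forebrain, D cyclins are known for setting the length of G1 in progenitors, and the inhibitors for cell cycle exit. The Cdkn2a and Cdkn2b locus is a textbook target of Polycomb repression in cultured cells.

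The CpG content of the promoters is shown first, because the deleted zinc finger reads CpG DNA. RefSeq windows (GRCm38.p6) from 250 bases before to 50 bases after a start were found for 7 of the 9 genes, 11 windows in all. None was found for Ccnd1 or Ccnd2. The 5 windows of Cdkn1a, Cdkn2a and Cdkn2b, the inhibitors whose changes the results turn on, are printed 5′ to 3′ on the strand of the gene, with every CG dinucleotide in capitals. Cdkn1a has a distal window at chr17:29090729-29091028 and a proximal window at chr17:29093519-29093818, both on the plus strand. Cdkn2a has one window at chr4:89294570-89294869, by the start of the transcript for p19Arf, and another at chr4:89282143-89282442, at the start of the transcript for p16Ink4a. Cdkn2b has a window at chr4:89310983-89311282, and these INK4 windows lie on the minus strand.
Cdkn1a distal: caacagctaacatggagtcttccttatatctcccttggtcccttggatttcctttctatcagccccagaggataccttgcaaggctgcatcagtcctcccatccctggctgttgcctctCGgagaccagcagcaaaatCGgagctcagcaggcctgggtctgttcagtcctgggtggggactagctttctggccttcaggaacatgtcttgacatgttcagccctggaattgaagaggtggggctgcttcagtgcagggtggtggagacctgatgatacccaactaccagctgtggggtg
Cdkn1a proximal: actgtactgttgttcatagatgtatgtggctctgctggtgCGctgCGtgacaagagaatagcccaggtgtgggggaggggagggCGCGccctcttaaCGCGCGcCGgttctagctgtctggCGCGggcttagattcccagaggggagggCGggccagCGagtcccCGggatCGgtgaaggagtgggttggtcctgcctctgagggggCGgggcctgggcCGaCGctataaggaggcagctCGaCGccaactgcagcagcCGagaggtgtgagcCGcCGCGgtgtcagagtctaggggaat
Cdkn2a p19Arf start: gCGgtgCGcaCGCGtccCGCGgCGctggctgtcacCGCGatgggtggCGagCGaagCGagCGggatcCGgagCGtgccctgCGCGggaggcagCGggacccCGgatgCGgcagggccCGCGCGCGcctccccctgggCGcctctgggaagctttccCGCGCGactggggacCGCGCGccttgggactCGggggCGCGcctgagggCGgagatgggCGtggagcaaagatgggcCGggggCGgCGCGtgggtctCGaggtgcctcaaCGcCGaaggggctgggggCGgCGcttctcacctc
Cdkn2a p16Ink4a start: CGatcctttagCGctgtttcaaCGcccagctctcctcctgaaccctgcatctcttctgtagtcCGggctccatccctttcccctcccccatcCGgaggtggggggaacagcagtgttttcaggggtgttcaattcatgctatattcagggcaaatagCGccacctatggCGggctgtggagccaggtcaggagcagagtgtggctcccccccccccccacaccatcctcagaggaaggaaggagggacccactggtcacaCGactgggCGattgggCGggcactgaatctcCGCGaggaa
Cdkn2b: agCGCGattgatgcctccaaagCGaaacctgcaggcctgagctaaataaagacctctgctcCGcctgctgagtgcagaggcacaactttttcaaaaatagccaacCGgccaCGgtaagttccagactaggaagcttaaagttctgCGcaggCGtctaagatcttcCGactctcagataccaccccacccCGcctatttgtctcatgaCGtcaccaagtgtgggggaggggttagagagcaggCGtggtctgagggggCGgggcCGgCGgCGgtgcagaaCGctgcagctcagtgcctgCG

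The p19Arf start of Cdkn2a held 45 CG dinucleotides in its 300 bases, more than any other window of these genes, and 98.4% of all 32851 RefSeq windows held as many or fewer. Its p16Ink4a start, on the same gene, held 12. Cdkn2b held 18, the proximal window of Cdkn1a held 23 and its distal window held 2. The other windows ranged from 8 in the downstream window of Cdkn2c to 33 in its upstream window, with Cdkn1b at 30, Cdkn2d at 22 and Ccnd3 at 15 and 28. The median over all windows was 7, so 10 of the 11 windows lay above it and only the distal window of Cdkn1a lay below. The letters GGGCGG, the GC box of Sp factors, were found on either strand in 9 of the 11 windows and in 35.7% of all windows. Of the E2F letters, TTTCCCGC was found in the p19Arf window of Cdkn2a alone (1.07% of all windows) and TTTGGCGC in none (0.514% of all windows). The E-box CACGTG was in 1 window, the downstream window of Cdkn2c (7.15% of all windows). Neither the TCF/LEF letters CTTTGAT (3.73%) nor TATAAA (13.6%) were in any of the 11 windows, which do not include Ccnd1 or Ccnd2. None of these strings lies within another, and a match describes the letters only.

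**Figure D1:**
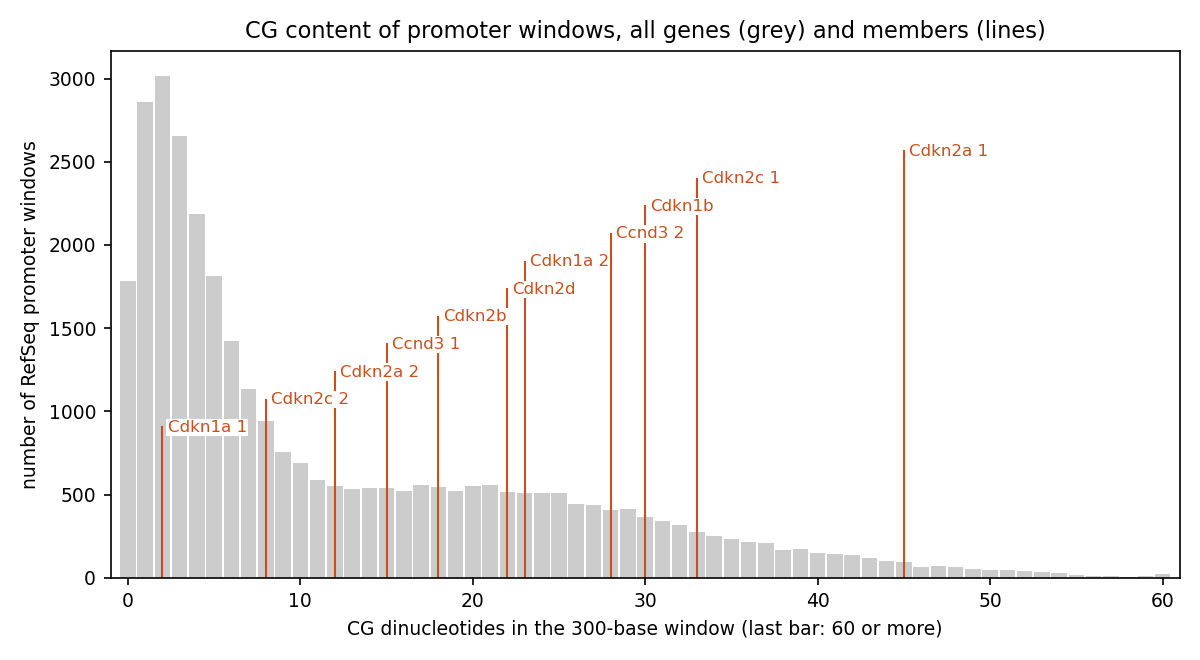
Number of RefSeq promoter windows (y axis) by the number of CG dinucleotides in their 300 bases (x axis), for all 32851 windows in grey, with a line for each of the 11 windows of the CDK inhibitors and D cyclins, whose height only separates the names. A number after a name tells the windows of 1 gene apart, with window 1 upstream, and the lines run from 2 CG dinucleotides in the distal Cdkn1a window to 45 at the p19Arf start of Cdkn2a.

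Levels are given in FPKM, fragments scaled to transcript length and to the mapped fragments of the library, as deposited. A gene was called higher or lower in cKO libraries where its change in log2(FPKM + 1) was over 0.4 in size at an unadjusted p under 0.05, and only genes whose mean in a table reached 0.5 FPKM were tested, with limma. FPKM totals were 363633 to 383249 in hippocampi, 261406 to 279902 in cortices and 261615 to 271513 in Rnf2 hippocampi. Neurosphere control 1 stood apart with a total of 855276, against 452580 to 522964 in the other neurosphere libraries, and 29.3% of its FPKM lay on entries without a gene name. Reads could be recovered for cortices and Rnf2 hippocampi, with 14654894 to 21905224 per library, while reads per gene and library could not be recovered for the other tables. Values over the whole gene do not test the deletions. The hippocampal level of Kdm2b was 29.4 ± 2.15 FPKM in the control and 27.2 ± 0.992 FPKM in the cKO group (SD, n = 3 each), and Rnf2 was at 31.5 ± 1.02 FPKM in control and 28.1 ± 0.494 FPKM in cKO Rnf2 hippocampi (SD, n = 2 each).

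In Kdm2b cKO hippocampi, Cdkn1a and Ccnd3 rose, which makes 2 of the 8 members tested, and no member was called lower. Over all genes of that table, 3.89% were called higher and 2.25% were called lower. In neurospheres, Cdkn1a, Cdkn2a, Cdkn2c and Ccnd1 rose and Cdkn2b fell, 4 and 1 of the 9 members, with 11.4% of all genes called higher and 13.2% called lower. In cortices, Cdkn1a, Ccnd1 and Ccnd3 rose, 3 of the 7 members tested, and none was called lower, beside 4.73% and 2.28% of all genes. In Rnf2 cKO hippocampi, Cdkn2b alone rose, 1 of the 8 members tested, and none was called lower, beside 2.86% and 1.85% of all genes.
With the p threshold alone, limma had 1 of the 8 members tested lower in Kdm2b cKO hippocampi, Cdkn2d, beside 1553 of all 13446 genes. It had 0 lower in cortices and in Rnf2 hippocampi, beside 801 of 15691 and 429 of 15764 genes. Limma-voom on recovered reads, with both thresholds and the filter, also called 0 lower in cortices and Rnf2 hippocampi, beside 412 and 354 genes. The median log2 fold change of the members tested was 0.30 in hippocampi, 0.39 in neurospheres, 0.39 in cortices and 0.01 in Rnf2 hippocampi, where the median over all genes was 0.01, -0.01, -0.01 and 0.00. For orientation, the share of tested genes with every cKO library above every control was 14.9% in hippocampi, 32.1% in neurospheres, 22.0% in cortices and 19.5% in Rnf2 hippocampi, and the share with every one below was 14.3%, 34.4%, 22.8% and 18.7%. In bulk tissue, fewer cells of a type and less RNA per cell cannot be told apart.

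**Figure D2:**
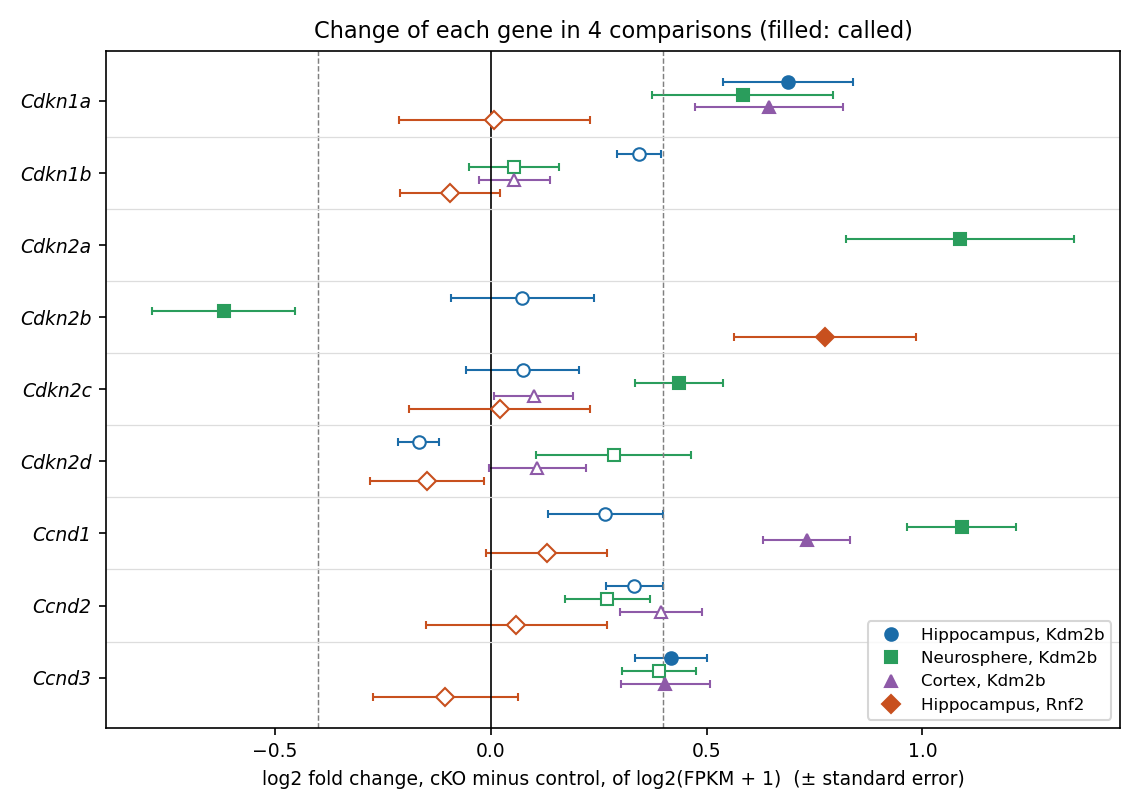
Change of each gene (y axis) as the log2 fold change of log2(FPKM + 1), cKO minus control (x axis), with bars for the standard error from limma, in the 4 comparisons marked by shape and color. Filled symbols passed the threshold and dashed lines mark 0.4 in either direction, and genes under the filter on low values have no symbol. Cdkn1a sits at 0.69, 0.58 and 0.64 in the Kdm2b comparisons and at 0.01 in the Rnf2 comparison, and Cdkn2b lies on opposite sides of 0 in neurospheres (-0.62) and Rnf2 hippocampi (0.77).

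Of the CIP/KIP genes, Cdkn1a (ENSMUSG00000023067, GRCm38 chr17:29090976-29100727) encodes p21, an inhibitor that p53 induces and that accompanies cell cycle arrest. In hippocampi it was at 7.49, 5.36 and 8.15 FPKM in controls 1 to 3 and at 11.1, 14.1 and 10.2 FPKM in cKO libraries 1 to 3. Every cKO library lay above every control. The rise was 0.69 on the log2 scale (standard error 0.15, adjusted p = 0.0261 from limma), from 7.0 ± 1.46 to 11.8 ± 2.04 FPKM (SD, n = 3 each), a ratio of 1.69.
Neurospheres held far more of this transcript, with 87.0 and 99.1 FPKM in controls and 112 and 174 FPKM in cKO libraries. The groups did not overlap, but cKO library 2 stood well above cKO library 1. The rise of 0.58 had a standard error of 0.21 and missed an adjusted threshold (adjusted p = 0.10 from limma). The change was 0.27 without cKO library 2 and 0.90 without cKO library 1. It was not called without cKO library 2, without control 1 (0.49) or without control 2 (0.68), nor with the filter on low values removed or the trend left out of the fit.
Cortices held the least, 1.70 and 1.07 FPKM in controls (133 and 81 reads) and 2.41 and 3.01 FPKM in cKO libraries (168 and 200 reads), again without overlap. The cortical rise was 0.64 (standard error 0.17, adjusted p = 0.241 from limma), and 0.99 with limma-voom on the recovered reads, which add no pseudocount of 1 FPKM (adjusted p = 0.0645). It was not called without cKO library 2 (0.53). In Rnf2 hippocampi, the values were 4.36 and 2.61 FPKM in controls and 3.68 and 3.18 FPKM in cKO libraries. The cKO libraries there fell between the controls, and the groups differed by 0.01 on the log2 scale (standard error 0.22, adjusted p = 0.997).

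Cdkn1b (ENSMUSG00000003031, GRCm38 chr6:134920401-134925513) encodes p27, which holds non-dividing cells out of the cycle. It had the highest mean of the 9 genes in control hippocampi, cortices and Rnf2 hippocampi. In hippocampi it was at 40.2, 39.3 and 40.8 FPKM in controls and at 52.9, 52.3 and 48.3 FPKM in cKO libraries. The groups were apart and the spread within each was small. The difference of 0.34 (standard error 0.051, adjusted p = 0.00624 from limma) lay under the fold change threshold, so the gene was not called, although its adjusted p was the lowest of the members in that table. In neurospheres it was at 70.1 and 73.3 FPKM in controls and 68.6 and 80.7 FPKM in cKO libraries, a log2 fold change of 0.05 (standard error 0.10). Cortices had 55.1 and 54.9 FPKM in controls and 59.5 and 54.9 FPKM in cKO libraries (log2 fold change 0.05, standard error 0.082). Rnf2 hippocampi had 32.7 and 36.4 FPKM in controls and 33.8 and 30.8 FPKM in cKO libraries (log2 fold change -0.09, standard error 0.12). In these 3 comparisons the groups overlapped.

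**Figure D3:**
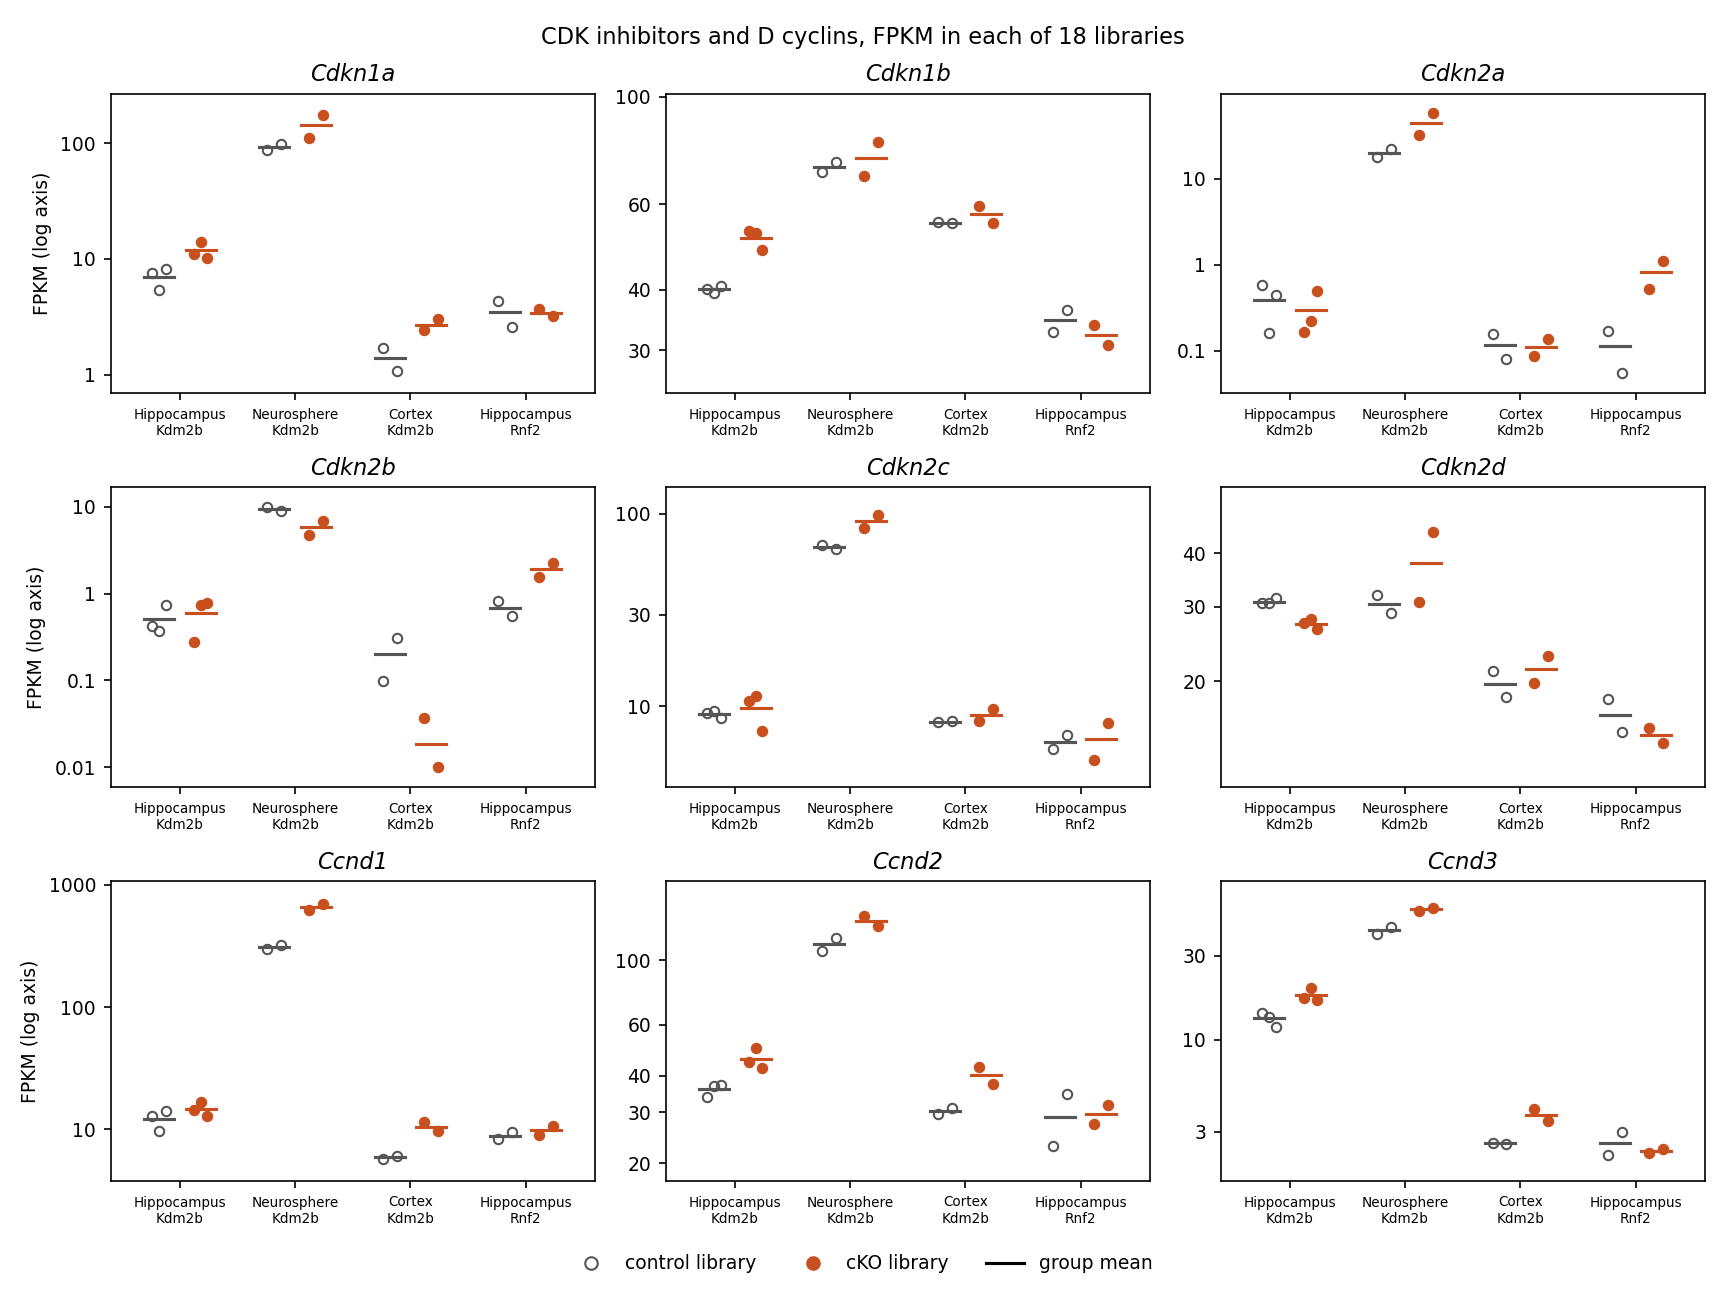
FPKM of each gene (y axis, log scale, a panel per gene with its own range) in each of the 18 libraries, with open circles for control and filled circles for cKO libraries and a line at the group mean, in the 4 comparisons along the x axis. A library listed at 0, Cdkn2b in cortical cKO library 2, is drawn at 0.01, and Ccnd1 reads 298 FPKM or more in every neurosphere library and 16.8 FPKM or less in every tissue library.

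Among the INK4 genes, Cdkn2a and Cdkn2b were at or under 2.22 FPKM in every tissue library and at or above 4.78 FPKM in every neurosphere library. Cdkn2a (ENSMUSG00000044303, GRCm38 chr4:89274471-89294653) encodes p16Ink4a, an INK4 inhibitor, and p19Arf, which stabilizes p53, from different first exons, and a value per gene cannot tell them apart. In neurospheres it was at 17.8 and 21.8 FPKM in controls and at 32.2 and 57.2 FPKM in cKO libraries. Both cKO libraries lay above both controls, with cKO library 2 far above the others. The rise was 1.09 (standard error 0.26, adjusted p = 0.0363 from limma), from 19.8 ± 2.85 to 44.7 ± 17.7 FPKM (SD, n = 2 each). Without cKO library 2 it was 0.68 and still called.
In hippocampi Cdkn2a was at 0.575, 0.162 and 0.442 FPKM in controls and at 0.167, 0.224 and 0.495 FPKM in cKO libraries. These values overlap, and with a mean under the filter the gene was not tested there. Cortical libraries had 4 and 2 reads on it in controls and 2 and 3 reads in cKO libraries, which is too few to show a difference.
In Rnf2 hippocampi the controls had 3 and 1 reads (0.171 and 0.0548 FPKM) and the cKO libraries had 10 and 21 reads (0.516 and 1.11 FPKM). Both cKO libraries were above both controls. Summed over libraries and set against the library totals, the ratio was 7.24 with an exact 95% interval of 2.56 to 28.2, which covers counting error in these libraries only. The gene missed the filter of the main test. Without that filter it was called with log2(FPKM + 1) (0.69, standard error 0.20, adjusted p = 0.832 from limma) and with limma-voom on the reads (2.62, standard error 0.95, adjusted p = 0.789).

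Cdkn2b (ENSMUSG00000073802, GRCm38 chr4:89306299-89311039), the neighbor of Cdkn2a, encodes p15, which TGF-beta signaling induces. In Rnf2 hippocampi it was at 0.817 and 0.555 FPKM in controls (17 and 12 reads) and at 1.57 and 2.22 FPKM in cKO libraries (36 and 50 reads). Both cKO libraries lay above both controls, at a low level in each. The rise was 0.77 (standard error 0.21, adjusted p = 0.643 from limma), and the ratio of summed reads, scaled to the library totals, was 2.77 with an exact 95% interval of 1.80 to 4.38 for counting error. With limma-voom on the reads it was 1.45 (adjusted p = 0.640), and with a pseudocount of 0.1 FPKM it was 1.34. It was not called without cKO library 2 (0.61).
In neurospheres the order was the other way round, with 9.84 and 8.87 FPKM in controls and 4.78 and 6.86 FPKM in cKO libraries. Both cKO libraries lay below both controls, and Cdkn2b fell by 0.62 on the log2 scale (standard error 0.17, adjusted p = 0.0474 from limma). This call was lost without control 1 (-0.55), the library that stood apart, without cKO library 1 (-0.40), and with libraries rescaled to the same FPKM total (-0.52). That rescaling moved the median of all neurosphere genes from -0.01 to 0.09 and the calls from 1392 higher and 1620 lower genes to 1256 and 830.
In hippocampi Cdkn2b was at 0.422, 0.373 and 0.741 FPKM in controls and at 0.275, 0.737 and 0.787 FPKM in cKO libraries, which overlap (log2 fold change 0.07, standard error 0.17). Cortical controls had 3 and 9 reads and cortical cKO libraries had 1 and 0 reads. The gene missed the filter there. The ratio of summed reads was 0.0942 with an exact 95% interval of 0.00220 to 0.637 for counting error. Without that filter, limma-voom on the reads called Cdkn2b lower (-2.54, standard error 0.96, adjusted p = 0.374), beside 804 of all 29852 genes. The fit of log2(FPKM + 1) without the filter did not call it (-0.23, standard error 0.098, adjusted p = 0.570 from limma).

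**Figure D4:**
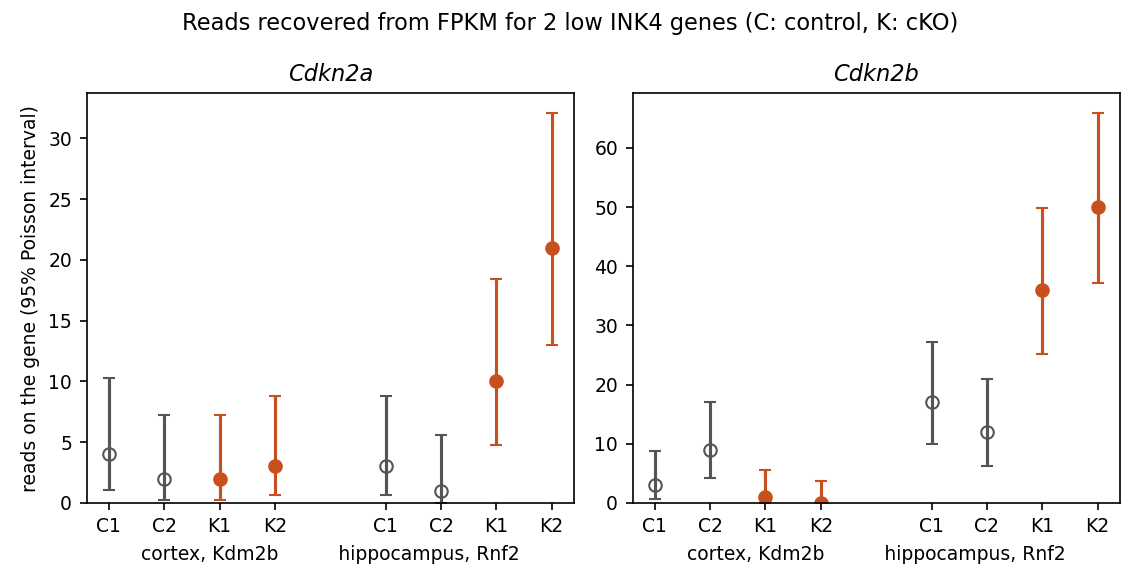
Reads on Cdkn2a and Cdkn2b (y axis), recovered from FPKM and gene length, in each library of the cortical and the Rnf2 comparison (x axis, C for control and K for cKO with the replicate number), with exact 95% Poisson intervals that cover counting error. In Rnf2 hippocampi, Cdkn2a had 3 and 1 reads in controls and 10 and 21 in cKO libraries, and Cdkn2b had 17 and 12 in controls and 36 and 50 in cKO libraries.

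Cdkn2c (ENSMUSG00000028551, GRCm38 chr4:109660876-109667189) and Cdkn2d (ENSMUSG00000096472, GRCm38 chr9:21288410-21291407) encode p18 and p19Ink4d, INK4 proteins of developing tissue. Together they made up most of the INK4 transcripts in tissue, and Cdkn2d alone took 74.8% to 76.0% of the summed INK4 FPKM in control hippocampi. In neurospheres Cdkn2c was at 68.7 and 66.1 FPKM in controls and at 84.8 and 98.8 FPKM in cKO libraries. It rose by 0.44 (standard error 0.10, adjusted p = 0.0327 from limma), with both cKO libraries above both controls, and the call was lost without control 2 (0.41), without cKO library 2 (0.33) and with the same FPKM total (0.56).
In hippocampi Cdkn2c was at 9.29, 9.44 and 8.69 FPKM in controls and at 10.7, 11.3 and 7.43 FPKM in cKO libraries, where cKO library 3 lay under every control. In cortices and Rnf2 hippocampi it ranged from 5.29 to 9.64 FPKM with overlapping groups, and its log2 fold changes in the 3 tissue comparisons were 0.07, 0.10 and 0.02.
Cdkn2d was the one member whose hippocampal cKO libraries all lay below the controls, with 30.5, 30.6 and 31.3 FPKM in controls and 27.4, 28.0 and 26.6 FPKM in cKO libraries. The difference was small, -0.17 on the log2 scale (standard error 0.048, adjusted p = 0.0653 from limma), and was not called. In neurospheres, Cdkn2d was at 31.9 and 28.9 FPKM in controls and 30.7 and 45.0 FPKM in cKO libraries, so that a single cKO library carried its log2 fold change of 0.28 (standard error 0.18). Its log2 fold changes in cortices and Rnf2 hippocampi were 0.11 and -0.15, with overlapping groups.

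All 3 D cyclins had a log2 fold change above 0 in each of the 3 Kdm2b comparisons, and 2 of the 3 had one in the Rnf2 comparison. Called higher were 1 in hippocampi, 1 in neurospheres and 2 in cortices. The share of all genes above 0 in all 3 Kdm2b comparisons was not counted. Ccnd1 (ENSMUSG00000070348, GRCm38 chr7:144929931-144939925) encodes cyclin D1, which mitogens and Wnt signaling induce. In neurospheres it was at 298 and 324 FPKM in controls and at 628 and 701 FPKM in cKO libraries. The groups were far apart, and Ccnd1 rose by 1.09 (standard error 0.13, adjusted p = 0.00404 from limma), from 311 ± 18.1 to 664 ± 51.7 FPKM (SD, n = 2 each).
In cortices it was at 5.74 and 6.05 FPKM in controls (596 and 606 reads) and at 11.3 and 9.64 FPKM in cKO libraries (1048 and 849 reads). Both cKO libraries lay above both controls. The rise was 0.73 (standard error 0.10, adjusted p = 0.0940 from limma), and 0.83 with limma-voom on the reads (adjusted p = 0.00450).
In hippocampi Ccnd1 was at 12.8, 9.63 and 14.0 FPKM in controls and at 14.4, 16.8 and 12.8 FPKM in cKO libraries, with overlap (difference 0.27, standard error 0.13, adjusted p = 0.279). In Rnf2 hippocampi it was at 8.29 and 9.39 FPKM in controls and at 8.88 and 10.7 FPKM in cKO libraries (log2 fold change 0.13, standard error 0.14).

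Ccnd2 (ENSMUSG00000000184, GRCm38 chr6:127125162-127152193) encodes cyclin D2, the D cyclin of intermediate progenitors and adult hippocampal neurogenesis. In hippocampi it was at 34.0, 37.0 and 37.3 FPKM in controls and at 44.6, 49.9 and 42.7 FPKM in cKO libraries. Every cKO library lay above every control, and the difference of 0.33 on the log2 scale (standard error 0.067, limma adjusted p = 0.0191) lay under the fold change threshold. Neurospheres had 107 and 119 FPKM in controls and 142 and 131 FPKM in cKO libraries, and cortices had 29.5 and 31.1 FPKM in controls and 42.9 and 37.5 FPKM in cKO libraries. The groups did not overlap in either, and the log2 fold changes were 0.27 (adjusted p = 0.103 from limma) and 0.39 (adjusted p = 0.213), both short of the threshold. The cortical change was called with limma-voom on the reads (0.41, adjusted p = 0.0539). Rnf2 hippocampi had 22.9 and 34.8 FPKM in controls and 27.4 and 31.7 FPKM in cKO libraries, where the controls enclosed the cKO values (log2 fold change 0.06, standard error 0.21).

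Ccnd3 (ENSMUSG00000034165, GRCm38 chr17:47505051-47599691) encodes cyclin D3. In hippocampi it was at 14.2, 13.5 and 11.9 FPKM in controls and at 17.2, 19.7 and 16.9 FPKM in cKO libraries. Every cKO library lay above every control. It rose by 0.42 (standard error 0.083, adjusted p = 0.0190 from limma), just past the fold change threshold, and fell short of it without control 3 (0.35) or cKO library 2 (0.35).
In cortices it was at 2.60 and 2.56 FPKM in controls and at 4.05 and 3.45 FPKM in cKO libraries, with a rise of 0.40 (standard error 0.10, adjusted p = 0.228 from limma), and 0.54 on the reads (adjusted p = 0.0390). That call, too, was lost without control 2 (0.397), without cKO library 1 (0.31) and with the same FPKM total (0.37). In neurospheres Ccnd3 was at 39.9 and 43.4 FPKM in controls and at 53.7 and 56.0 FPKM in cKO libraries, a difference of 0.39 just under the threshold (standard error 0.085, adjusted p = 0.0269). In Rnf2 hippocampi it was at 2.23 and 2.98 FPKM in controls and at 2.28 and 2.39 FPKM in cKO libraries (log2 fold change -0.11, standard error 0.17). Part of Ccnd3 overlaps the neighboring gene Bysl in the annotation, and reads there cannot be assigned without knowing how they were counted.

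The make-up of the D cyclin transcripts differed between tissue and culture. Ccnd2 took 55.8% to 61.5% of the summed D cyclin FPKM in control hippocampi and 78.0% to 78.3% in control cortices, whereas Ccnd1 took 66.6% to 66.9% in control neurospheres. Control Rnf2 hippocampi, of the same tissue and age, had Ccnd2 at 68.5% to 73.8%. Their Ccnd3 share was 6.32% to 6.68%, against 18.8% to 23.3% in control hippocampi and 6.46% to 6.87% in control cortices. So these shares also differed between tables of 1 tissue. In cKO neurospheres the share of Ccnd1 was 76.3% and 78.9%, above both controls, and the sum of the 3 genes was 823 and 888 FPKM against 446 and 486 FPKM. In cortices the share of Ccnd1 was 15.2% and 15.3% in controls and 19.4% and 19.1% in cKO libraries, and the sum was 37.9 and 39.7 FPKM against 58.3 and 50.6 FPKM. In hippocampi the sum was 60.1 to 63.2 FPKM in controls and 72.4 to 86.4 FPKM in cKO libraries, with a Ccnd1 share of 16.0% to 22.1% and 17.7% to 19.5% that overlapped. These shares are descriptions, and the tables were made separately, so levels across them stand side by side only.

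**Figure D5:**
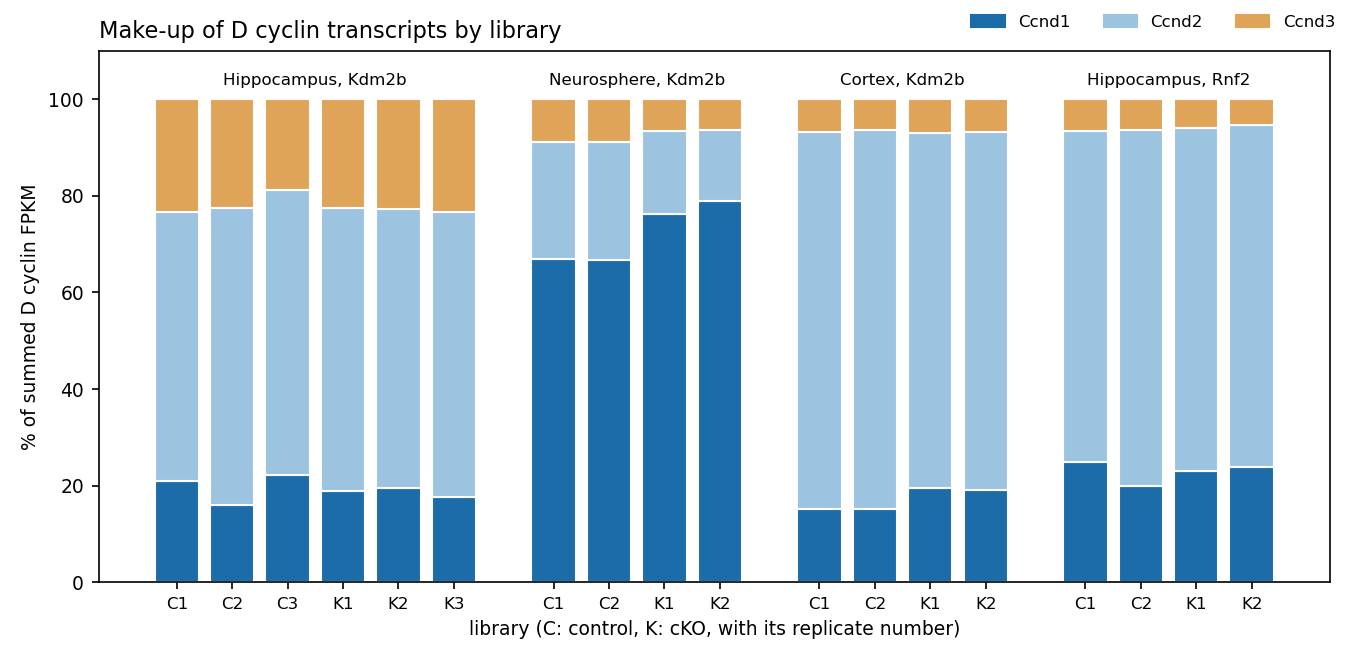
Share of Ccnd1, Ccnd2 and Ccnd3 (stacked bars, % of their summed FPKM, y axis from 0) in each library (x axis, C for control and K for cKO with the replicate number) of the 4 comparisons. Ccnd1 takes 66.6% to 78.9% in neurospheres and 15.2% to 24.8% in cortices and Rnf2 hippocampi, where Ccnd2 takes 68.5% to 78.3%.

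In order of level within control hippocampi, Cdkn1b (40.1 FPKM) stood before Ccnd2 (36.1), Cdkn2d (30.8), Ccnd3 (13.2), Ccnd1 (12.1), Cdkn2c (9.14), Cdkn1a (7.0), Cdkn2b (0.512) and Cdkn2a (0.393). The ranges of neighbors in this order overlapped for Ccnd3 with Ccnd1 and for Cdkn2b with Cdkn2a, and the other neighbors were apart. Control neurospheres had another order, from Ccnd1 (311 FPKM) over Ccnd2 (113), Cdkn1a (93.0), Cdkn1b (71.7), Cdkn2c (67.4), Ccnd3 (41.7), Cdkn2d (30.4) and Cdkn2a (19.8) to Cdkn2b (9.36), with no overlap between neighbors. In control cortices Cdkn1b (54.99 FPKM), Ccnd2 (30.3) and Cdkn2d (19.7) led, followed by Cdkn2c (8.33), Ccnd1 (5.90), Ccnd3 (2.58), Cdkn1a (1.39), Cdkn2b (0.201) and Cdkn2a (0.118), and only the last pair overlapped. In control Rnf2 hippocampi the order was Cdkn1b (34.5 FPKM), Ccnd2 (28.8), Cdkn2d (16.7), Ccnd1 (8.84), Cdkn2c (6.53), Cdkn1a (3.48), Ccnd3 (2.61), Cdkn2b (0.686) and Cdkn2a (0.113), with overlap of Cdkn1b with Ccnd2 and of Cdkn1a with Ccnd3. The place of Ccnd3 thus differed between the tables of control hippocampi.

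Whether a change differed between comparisons was tested as an interaction, with the hippocampal Kdm2b effect on one side. Against neurospheres, 3 of the 8 members tested in both differed, beside 26.8% of all genes. The hippocampal effect was lower for Ccnd1 by 0.83 (standard error 0.19, adjusted p = 0.00978 from limma), lower for Cdkn2d by 0.45 (standard error 0.17, adjusted p = 0.0703) and higher for Cdkn2b by 0.69 (standard error 0.26, adjusted p = 0.0709). So the count lay little above that of all genes. The difference for Cdkn2b was lost without neurosphere control 1 or cKO library 1 and with a pseudocount of 0.1 FPKM (0.84), it was not tested with a filter of 1 FPKM, and that for Cdkn2d without neurosphere control 2 or cKO library 2. The 3 tests of this kind share the hippocampal libraries.
Against cortices, Ccnd1 alone of 7 members differed, with an effect lower by 0.47 in hippocampi (standard error 0.20, adjusted p = 0.313), beside 6.99% of all genes. This difference was lost when any of 7 of the 10 libraries was left out, the values then running from -0.36 to -0.61 over all 10.
Against the Rnf2 comparison, 4 of 8 members differed, beside 8.84% of all genes. The Kdm2b effect was higher for Cdkn1a by 0.68 (standard error 0.27, adjusted p = 0.257), for Ccnd3 by 0.52 (standard error 0.16, adjusted p = 0.153) and for Cdkn1b by 0.44 (standard error 0.11, adjusted p = 0.0810), and lower for Cdkn2b by 0.70 (standard error 0.26, adjusted p = 0.224). None of these 4 passed an adjusted p of 0.05. Each was lost when some library was left out. Without Rnf2 control 2 the difference of Cdkn1a alone was left, and without Rnf2 cKO library 2 that of Ccnd3 alone. Without Rnf2 control 1, Cdkn1a was lost (0.39) and Ccnd2 was called (0.56). With a pseudocount of 0.1 FPKM Cdkn2b was not called (-1.20), and with a filter of 1 FPKM it was not tested.

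The other genes of the G1/S machinery were taken as a list of 30, all tested in each table. For this list and those that follow, the shares over all genes were 3.89% called higher and 2.25% lower in hippocampi. They were 11.4% and 13.2% in neurospheres, 4.73% and 2.28% in cortices, and 2.86% and 1.85% in Rnf2 hippocampi. In hippocampi 2 rose and 0 fell, Cdkn1c and Cdk2. An unadjusted p under 0.05 was found for 7, beside 1537 higher and 1553 lower of all 13446 genes. Cdkn1c, the third CIP/KIP gene, rose from 14.0 ± 3.0 to 27.0 ± 3.06 FPKM (SD, n = 3 each), by 0.92 (standard error 0.14, adjusted p = 0.00736 from limma). Cdk2, the kinase partner of cyclins E and A, rose by 0.49 (adjusted p = 0.0303).
In neurospheres 16 rose and 3 fell. Cdkn1c was one that fell there, by 1.11 on the log2 scale, from 23.7 ± 0.259 to 10.5 ± 1.70 FPKM (SD, n = 2 each, adjusted p = 0.00334). The largest rises were those of Cks1b, a CDK subunit (1.42), Mycn (1.31), the E cyclins Ccne2 (1.25) and Ccne1 (1.03), cyclin A Ccna2 (1.13) and the E2F genes E2f1 (1.12) and E2f7 (1.06). In cortices Cdkn1c alone rose (0.68, adjusted p = 0.157), and none fell. In Rnf2 hippocampi none was called with limma, 1 had an unadjusted p under 0.05, and limma-voom on the reads called 0 higher and 1 lower. The list's median log2 fold change was 0.12, 0.58, 0.02 and -0.04 in hippocampi, neurospheres, cortices and Rnf2 hippocampi. The kinases of the D cyclins were not called in any comparison, with log2 fold changes of 0.06, 0.31, 0.06 and 0.25 for Cdk4 and 0.17, 0.40, -0.13 and -0.17 for Cdk6, in the same order. The hippocampal entry of Cdk4 is shared with Agap2.

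Because Cdkn1a is induced by p53, 20 other p53 targets were read beside it. In hippocampi 1 of 18 tested rose and none fell, Btg2, an antiproliferative gene (0.68, adjusted p = 0.00962 from limma), while the p53 inhibitor Mdm2 had a log2 fold change of 0.05. In neurospheres 5 of 20 rose and 1 fell, with Gtse1 at 1.13, Perp at 0.79 and Pmaip1 at 0.65, while Btg2 fell by 1.70 on the log2 scale. In cortices 3 of 17 rose, which were Phlda3 (1.14), Sesn2 (0.65) and Bbc3 (0.51), and none passed an adjusted p of 0.05. In Rnf2 hippocampi 0 of 18 were called by limma, 0 had an unadjusted p under 0.05, and limma-voom called 0.
Of 14 Polycomb genes, Bcor, a partner of KDM2B in its complex, rose in hippocampi (1.44), neurospheres (0.70) and cortices (1.22). In hippocampi Cbx7, a PRC1 subunit known for repressing Cdkn2a, rose too (0.46, adjusted p = 0.0161), and in neurospheres it fell by 0.53 on the log2 scale (adjusted p = 0.0342). There, Ezh2 rose (0.61) and Ring1 fell by 0.56 on the log2 scale. In Rnf2 hippocampi limma called none of the 14, with 1 at an unadjusted p under 0.05, and limma-voom called 2 higher.

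Markers of proliferation and of other cells moved with some of these values. In neurospheres all 25 proliferation markers rose, and their summed level was 719 and 738 FPKM in controls and 1487 and 1593 FPKM in cKO libraries. All 6 astrocyte markers and 6 of 8 oligodendrocyte lineage markers fell there. The astrocyte markers summed to 244 and 263 FPKM in controls and 53.7 and 62.2 FPKM in cKO libraries. Those of the oligodendrocyte lineage stayed close in sum, at 2533 and 2585 FPKM in controls and 2460 and 2523 FPKM in cKO libraries. In hippocampi none of the 25 proliferation markers was called by limma (2 at an unadjusted p under 0.05), and 6 of 12 progenitor markers rose, among them Pax6 (0.83) and Eomes (1.15). Only 1 of 12 neuron markers was called lower, but 11 lay below 0 and 8 had an unadjusted p under 0.05 from limma. The neuron markers summed to 2955 to 3048 FPKM in controls and 2355 to 2676 FPKM in cKO libraries. Of 6 astrocyte markers 2 were called lower, 0 at an adjusted p under 0.05, and their sums overlapped. Of the lists written for other cells, 3 of 7 markers for microglia, 3 of 4 tested for choroid plexus and 2 of 4 tested for thalamus rose in hippocampi. The thalamus list shares Lhx9 with the hippocampus list, so it does not mark cells from outside the Emx1 lineage alone. Of the choroid plexus markers 0 passed an adjusted p of 0.05, and their sums overlapped, at 5.87 to 17.7 FPKM in controls and 8.40 to 61.6 FPKM in cKO libraries. In cortices 6 of 7 meninges markers rose, from a sum of 3.46 to 5.05 FPKM in controls to 23.3 to 38.5 FPKM in cKO libraries, with 3 of 7 microglia, 3 of 7 endothelial and 3 of 5 blood markers. In Rnf2 cKO hippocampi 4 of 7 meninges markers fell, from 42.2 to 44.0 FPKM to 23.3 to 31.0 FPKM. The choroid plexus markers there summed to 13.5 to 51.7 FPKM in controls and to 9.07 to 246 FPKM in cKO libraries. All 6 tested had a log2 fold change above 0, and limma called 0 of them. All 9 hippocampus markers passed the filter in both hippocampal tables, but 7 of them also did in cortices and 7 in neurospheres, so the list does not tell the labelled tissues apart. In neurospheres no microglia or blood marker passed it. The part of these markers in the values of the CDK inhibitors and D cyclins was not tested.

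Over the 18 libraries, each centered on its table, the genes with the most similar pattern were found by Pearson's r among 10276 genes, for the 7 members tested in all tables. The libraries share tables and groups, so r is a description. For Ccnd1 they were Anp32b (0.94), Tcf7 (0.94) and Lrp5 (0.94), and for Cdkn1a they were Efna1 (0.93), Arpc1b (0.93) and Tyro3 (0.88). Cdkn1b was closest to Ddr1 (0.86), Neurog2 (0.85) and Ngfr (0.84). Cdkn2c was closest to Cdca8 (0.93), Knstrn (0.91) and Cdca3 (0.89), and Cdkn2d to Acot9 (0.94), Gemin6 (0.91) and Vdac1 (0.91). Ccnd2 was closest to Gypc (0.92), Samd4 (0.88) and Mrc2 (0.88), and Ccnd3 to Arhgap10 (0.92), Esyt1 (0.92) and Pde5a (0.92).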

How the data were processed

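RNA-seq of 18 libraries was analysed from the values deposited as FPKM by the authors, in 4 tables. The submitters' processing notes name cutadapt, STAR, Cufflinks 2.2.1 and DESeq2 and the builds GRCm38 and mm10. Per the study's methods, reads of hippocampi and neurospheres were trimmed with cutadapt and aligned with STAR to mm10, transcripts were assembled with Cufflinks and levels expressed as FPKM, and DESeq2 was run on read counts, which were not used here. The methods do not name cortices and do not say whether they cover the Rnf2 hippocampi, so which tool made the FPKM of these tables is not given in the sources used here. No per-sample column was left out.

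Libraries were grouped by their labels. Entries were taken by gene name, with the entry of the highest mean where a name had several. log2(FPKM + 1) was fitted per table with limma 3.58.1 in R 4.3.3 (moderated with a trend) for genes whose mean reached 0.5 FPKM, with Benjamini-Hochberg adjustment over all genes tested. Thresholds (log2 fold change over 0.4 in size, unadjusted two-sided p under 0.05) are those of the study. Differences between comparisons were contrasts in a fit over both tables. In cortices and Rnf2 hippocampi, FPKM times gene length gave whole reads for 100% of values within a tolerance of 0.05, and limma-voom was run on these reads as an added alternative. Intervals of read ratios are exact 95% intervals and cover counting error only. On simulated data, 198 to 200 of 200 genes changed by 1 on the log2 scale were recovered in the 4 comparisons. The values were drawn for each gene separately from normal distributions with limma's moderated spread, so they meet the model of the test. They hold no outlying library such as neurosphere control 1. Of unchanged genes, 0.418% were called for hippocampi, 1.23% for neurospheres, 1.56% for cortices and 3.01% for Rnf2 hippocampi. The changed genes were drawn only from genes above a floor of expression. This recovery therefore does not cover low genes, such as Cdkn2a and Cdkn2b in tissue, or changes smaller than 1. Genes outside the 9 were named where they were called, up to the 8 largest changes among G1/S genes and 4 per other list. Cdk4, Cdk6, Mdm2 and neurosphere Cbx7 were named after their values were seen. The values of 1 called gene of these lists are not reported here. The 9 genes, the gene and marker lists and the tests were chosen with earlier results of these data known. Promoter windows are from RefSeq, and gene coordinates are those of the annotation of the tables with gene identifiers. Alternatives covered the pseudocount, the filter, the scaling, the moderation, the thresholds, the entries summed per name, a replicate block and each library left out.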

Additional observations from a re-analysis of the deposited data

Results flagged for a closer look

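The values here are differences of log2 fold changes between comparisons, the first named minus the second, and each was noted because the change of a gene differed between them. Against neurospheres, the hippocampal Kdm2b effect differed by 0.69 for Cdkn2b, -0.45 for Cdkn2d and -0.83 for Ccnd1. Against cortices, it differed by -0.47 for Ccnd1. Against Rnf2 hippocampi, it differed by 0.68 for Cdkn1a, 0.44 for Cdkn1b, -0.70 for Cdkn2b and 0.52 for Ccnd3. These 8 come from interaction tests in limma, of which Ccnd1 against neurospheres passed an adjusted p of 0.05 (0.00978).

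For Cdkn2b, every cKO library lay below the controls in neurospheres and in cortices and above them in Rnf2 hippocampi. The differences between these comparisons were not tested. The effect in neurospheres lay below that in Rnf2 hippocampi by 1.39 (difference -1.39), and the effect in cortices, with 12 reads in controls and 1 in cKO libraries, differed from that in Rnf2 hippocampi by -1.01 on the log2(FPKM + 1) scale.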

How the results depend on the processing

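Counts of called members depended most on the thresholds and on single libraries. In hippocampi, 4 members were higher and 1 lower with no fold change threshold, beside 1537 and 1553 of all 13446 genes. With 1 library left out, 1 to 2 were higher. In neurospheres, 2 to 6 were higher and 0 to 1 lower with 1 library left out, and 0 were lower with libraries rescaled to the same FPKM total. Without neurosphere control 1, 3 were higher and 0 lower. With an adjusted p under 0.05, 0 were higher in cortices and 0 in Rnf2 hippocampi, beside 58 and 0 of all genes. In cortices limma-voom called 4 at the unadjusted threshold, beside 1047 of all genes. In Rnf2 hippocampi 2 were higher with no filter on low values, and 0 to 1 with 1 library left out. Members whose effect differed numbered 1 against neurospheres, 0 against cortices and 0 against Rnf2 hippocampi with an adjusted p under 0.05. Against cortices they numbered 0 with no filter, 3 with no fold change threshold, and 0 to 1 with 1 library left out, and against Rnf2 hippocampi 1 to 4 with 1 library left out. The cause was not tested.

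Deviations of same-numbered libraries correlated at -0.10 to 0.05 in hippocampi, -0.28 in neurospheres, -0.05 in cortices and 0.16 in Rnf2 hippocampi. Neurospheres, cortices and Rnf2 hippocampi have only 2 pairs each, and both pairs give the same value. No label ties the numbers to a litter or batch, and they were not taken as pairs. A replicate block gave 2 and 0 members higher and lower in hippocampi, 4 and 1 in neurospheres, 3 and 0 in cortices and 1 and 0 in Rnf2 hippocampi, and left 0 in place of 1 differing against cortices. Over all genes of the Rnf2 comparison it moved the calls from 451 higher and 291 lower to 552 and 437. Crossing the neurosphere numbers, chosen after seeing the data, also gave 4 and 1.

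Some differences between comparisons that were not called turned direction. With the same FPKM total, they were -0.035 for Ccnd2 and -0.070 for Ccnd3 against neurospheres, 0.034 for Cdkn2c and 0.0023 for Ccnd2 against cortices, and 0.00071 for Cdkn2d against Rnf2 hippocampi. With a pseudocount of 0.1, they were -0.19 for Cdkn1a and -0.076 for Ccnd3 against cortices. With 1 library left out, log2 fold changes ran from -0.015 to 0.23 for Cdkn2b and -0.028 to 0.24 for Cdkn2c in hippocampi, from -0.063 to 0.17 for Cdkn1b in neurospheres, and from -0.0030 to 0.11 for Cdkn1b in cortices. In Rnf2 hippocampi they ran from -0.28 to 0.30 for Cdkn1a, -0.25 to 0.30 for Cdkn2c, -0.23 to 0.35 for Ccnd2 and -0.26 to 0.045 for Ccnd3. Differences against neurospheres ran from -0.21 to 0.42 for Cdkn1a, -0.010 to 0.14 for Ccnd2 and -0.041 to 0.087 for Ccnd3. Against cortices they ran from -0.15 to 0.23 for Cdkn1a, -0.13 to 0.14 for Cdkn2c, -0.16 to 0.034 for Ccnd2 and -0.079 to 0.10 for Ccnd3, and against Rnf2 hippocampi from -0.22 to 0.33 for Cdkn2c, -0.14 to 0.10 for Cdkn2d, -0.0088 to 0.26 for Ccnd1 and -0.018 to 0.56 for Ccnd2, whose highest value, without Rnf2 control 1, was called. Of the log2 fold changes of members under the other settings, 377 kept direction and call, 10 gained the call, 10 lost it and 4 of untested genes moved.

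Depth limits Cdkn2a and Cdkn2b in cortices and Rnf2 hippocampi, where a library held 0 to 50 reads on them. Where a group has 1 library after one is left out, that library is assumed to vary like the others. Groups of 2 and 3 libraries leave changes near the fold change threshold undecided.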
